A study of Mus musculus with 2 samples.

Results

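The Wnt ligands described here are 10 of the 19 mouse Wnt genes that the array measures, namely Wnt3, Wnt3a, Wnt4, Wnt5a, Wnt5b, Wnt6, Wnt7b, Wnt8a, Wnt10a and Wnt11. The array names 34650 genes in all. The members were found by their gene symbol, which gave 11 probes, 2 of them for Wnt4 and 1 for each other gene. The 10 genes were chosen from measured values of the same pair of arrays, so their levels and differences are given as a description and no test was made on them. RNA was measured on 2 one-colour microarrays, 1 per group, and the precision of every value is limited by that number.

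Both groups were made from the mouse embryonic stem (ES) cell line E14Tg2A, strain 129/Ola, kept in serum with LIF, the cytokine that holds ES cells undifferentiated. EpiSC, cells modelled on the epiblast stem cells of the early post-implantation embryo, were obtained from ES cells moved into chemically defined medium with FGF2 at 12 ng/mL and Activin A at 20 ng/mL. ELA-EpiSC received the same factors at the same concentrations, but started from Epiblast-Like Aggregates (ELA), floating clusters that ES cells formed once serum and LIF were withdrawn. Both groups therefore came from 1 cell line and shared FGF2 and Activin A. Each RNA was a pool of 3 independent experiments, so the spread between cultures cannot be seen. Per the labels 50 ng of it was labelled with Cy3, while the methods of the study give another amount. The source field of the labels goes against the titles, since it names an Argonaute immunoprecipitate for the EpiSC sample and total RNA for the ELA-EpiSC sample, both marked 0DIV. The descriptions and the molecule field side with the titles, from which the groups were taken, and the source field was not tested here.

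Wnt proteins are secreted, lipid-modified signals. Porcupine (Porcn) attaches the lipid, Wntless (Wls) carries the protein to the cell surface, and Frizzled receptors with the co-receptors Lrp5 and Lrp6 receive it. In the canonical branch beta-catenin then accumulates and activates genes together with TCF/LEF factors, while non-canonical Wnt ligands act on cell polarity and movement. In the epiblast of the embryo Wnt signals are best known for inducing the primitive streak, and cultured epiblast stem cells are known to make and respond to Wnt ligands.

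Each spot reads a ligand through a probe of 60 bases, whose last 30 bases are given for some of the ligands on which the results turn, among them those with the largest differences and the neighbours Wnt6 and Wnt10a. Positions are those of the mm9 assembly, as the array files give them, and where in the transcript each probe lies was not annotated here. Capitals mark AATAAA, the canonical polyadenylation hexamer.
Wnt3 probe, chr11:103679068-103679097, plus strand: ttatcctcgccatagtcaggtaatagcatc
Wnt4 probe, chr4:136855372-136855401, plus strand: acggcatagtctgagatgcacgataaaaat
Wnt5b probe, chr6:119382550-119382579, minus strand: ccctttgacattaaatatctttttactgag
Wnt6 probe, chr1:74831491-74831520, plus strand: gtttagtatcAATAAAgacatttaaatcca
Wnt10a probe, chr1:74850663-74850692, plus strand: ctctttgagacactctctggggaaaaagaa
Wnt7b probe, chr15:85366896-85366925, minus strand: tgtgaAATAAAtatactgacacagccccat
The hexamer stood in 2 of the 11 probes, those of Wnt6 and Wnt7b, and in 10.1% of all 55681 probes. For Wnt4 the brighter of the 2 probes is shown. The other Wnt4 probe starts at chr4:136851690 and ends at 136852258, so it spans 569 bases of the genome. The best ungapped match of any of the 11 probes to a probe of another gene covered 31 to 38 of the 60 bases. None of the 11 probes was saturated.

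The RefSeq promoter table (GRCm38.p6) held 9 windows for 6 of the 10 ligands, with several starts for Wnt5b and Wnt11. Wnt5a, Wnt7b, Wnt8a and Wnt10a had no entry. The 250 bases before the start are shown for Wnt4 and Wnt6, the listed ligands with the largest differences, and for Wnt11 and 1 start of Wnt5b, the windows with a TCF/LEF core. Capitals mark that core (CTTTGAT or CTTTGAA or CTTTGTT) and the GC box GGGCGG, each searched on both strands, with neighbouring matches running together.
Wnt4 promoter, chr4:137277385-137277634, plus strand: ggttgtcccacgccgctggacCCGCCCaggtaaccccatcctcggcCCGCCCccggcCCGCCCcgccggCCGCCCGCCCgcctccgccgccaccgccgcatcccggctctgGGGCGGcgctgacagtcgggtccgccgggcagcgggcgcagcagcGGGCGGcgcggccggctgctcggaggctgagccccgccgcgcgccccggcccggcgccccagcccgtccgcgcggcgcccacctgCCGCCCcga
Wnt6 promoter, chr1:74771642-74771891, plus strand: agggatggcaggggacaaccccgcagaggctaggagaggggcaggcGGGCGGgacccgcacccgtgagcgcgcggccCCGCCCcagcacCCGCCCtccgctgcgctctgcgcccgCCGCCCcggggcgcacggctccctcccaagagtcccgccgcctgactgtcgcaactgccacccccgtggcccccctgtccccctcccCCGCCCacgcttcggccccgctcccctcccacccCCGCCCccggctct
Wnt11 promoter, chr7:98834862-98835111, plus strand: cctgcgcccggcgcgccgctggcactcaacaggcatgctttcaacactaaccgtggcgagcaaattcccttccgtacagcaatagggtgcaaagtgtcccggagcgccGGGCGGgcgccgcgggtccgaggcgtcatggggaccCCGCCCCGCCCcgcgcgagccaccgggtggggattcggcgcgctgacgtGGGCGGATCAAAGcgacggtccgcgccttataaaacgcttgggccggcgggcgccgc
Wnt5b promoter, chr6:119449387-119449636, minus strand: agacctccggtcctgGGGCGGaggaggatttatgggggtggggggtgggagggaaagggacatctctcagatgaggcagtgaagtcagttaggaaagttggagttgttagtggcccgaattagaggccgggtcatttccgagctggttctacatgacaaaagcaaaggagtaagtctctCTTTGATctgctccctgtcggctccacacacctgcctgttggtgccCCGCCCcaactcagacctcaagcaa
The Wnt4 window was 85.2% G and C and held 44 CpG dinucleotides and 8 GC boxes. The Wnt6 window was 79.6% G and C with 28 CpG and 6 GC boxes. Over all 32851 windows of the table the medians were 52.4% and 6 CpG. At least 1 GC box was found in 7 of the 9 Wnt windows and in 32.7% of all windows. A TCF/LEF core was found in 2 of the 9 windows, at position -51 from the start of Wnt11 and at -71 from 1 start of Wnt5b, and in 12.0% of all windows. The Wnt11 window also held TATAAA at -29, a motif present in 12.4% of all windows. CCAAT was found in the Wnt3 window alone (33.8% of all windows), and the T-box element TCACACC in 0 of the 9 (3.33% of all windows). A match describes letters in the window, and nothing here bears on binding.

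On the arrays, 36645 probes (65.8%) were well above background in EpiSC against 36206 (65.0%) in ELA-EpiSC by the flag of the scanner software. Levels are log2 signal after background correction and quantile normalization, and differences are ELA-EpiSC minus EpiSC on that scale, relative to the bulk of the genes. Scaling to the spike-in RNA, of which all 8 detected probes were lower on the ELA-EpiSC array, adds 0.53 to every difference. Under scaling to the median of each array the middle gene shifts from 0.01 to 0.15. The only measure of error was technical: over 312 probes printed 10 times and well above background on both arrays, the SD of a difference was 0.10. All 7 primed epiblast markers were well above background on both arrays. Of the 7, Pou3f1 was past 1, at 12.56 in EpiSC against 14.02 in ELA-EpiSC. The other 6 ran from -0.82 (Dnmt3b) to 0.32 (Nanog), with a difference of 0.20 for Pou5f1. In whole-culture RNA, fewer cells of a type and less RNA per cell cannot be told apart.

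**Figure D1:**
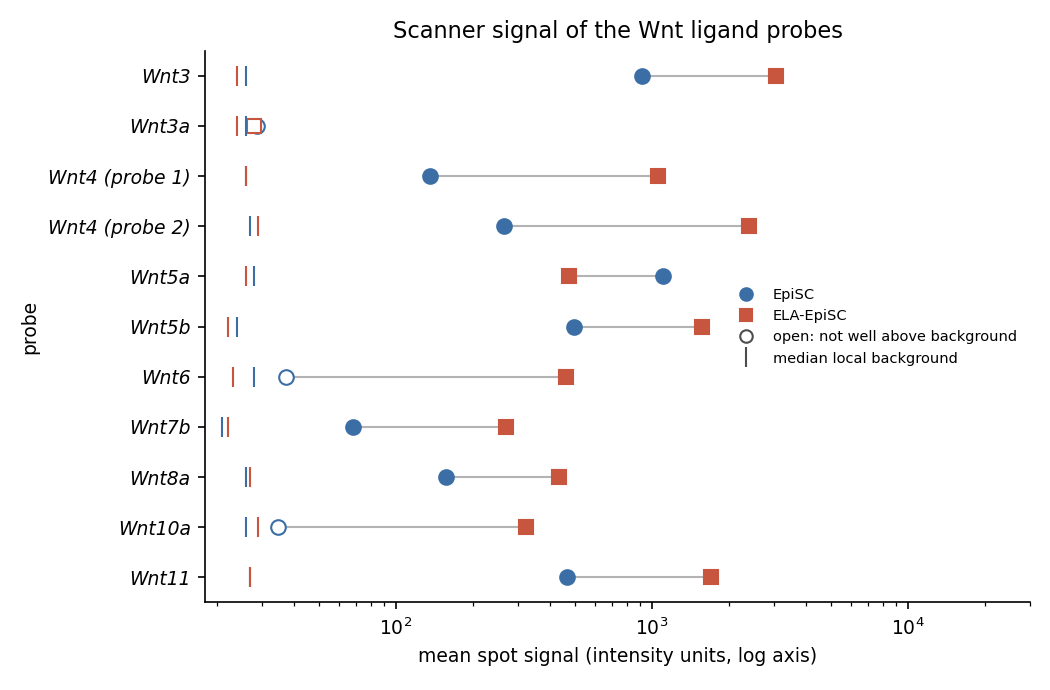
Mean spot signal of the 11 Wnt ligand probes on the EpiSC array (circles) and the ELA-EpiSC array (squares), in scanner intensity units on a log axis, with ticks for the median local background. Open symbols are not well above background: both arrays for Wnt3a, and the EpiSC array for Wnt6 and Wnt10a. Wnt5a is the ligand whose circle lies to the right of its square.

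The ligands tied to the primitive streak were read first. Wnt3, which the mouse embryo needs to form the streak, gave a spot signal of 914 units in EpiSC against 3064 in ELA-EpiSC, over local backgrounds of 26 and 24. Its level was 10.04 in EpiSC against 11.46 in ELA-EpiSC, a difference of 1.42, or 2.68-fold. The Wnt3 probe lies at chr11:103679038-103679097 on the plus strand. Wnt8a, expressed in the posterior epiblast and streak of the embryo, read 156 units in EpiSC against 434 in ELA-EpiSC, with levels of 7.66 and 8.74. Its difference of 1.08 (2.11-fold) was the smallest in size among the detected ligands and was 1.00, just under 1, after scaling to the 75th percentile. Both streak ligands were thus higher on the ELA-EpiSC array. Wnt3a, the paralogue of Wnt3 that acts in somite and tail formation, was well above background on neither array. Its spot read 28.5 units in EpiSC against 27.9 in ELA-EpiSC over backgrounds of 26 and 24, at chr11:59061556-59061615 on the minus strand, so no fold is given for it.

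Wnt4, Wnt6, Wnt7b and Wnt10a are best known from epithelial organs, and all but Wnt7b held the largest differences of the set. Wnt4, which drives kidney tubule formation and ovary development, read 264 units in EpiSC against 2389 in ELA-EpiSC on its brighter probe (chr4:136855342-136855401, plus strand). The levels were 8.33 and 11.10, a difference of 2.77 or 6.84-fold. The second Wnt4 probe read 136 and 1053 units and gave a difference of 2.45 between levels of 7.49 and 9.94. Both probes of Wnt4 therefore put it far higher in ELA-EpiSC. The difference of Wnt4 ran from 2.61 to 3.30 across the processing alternatives.

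Wnt6, a ligand of ectodermal and kidney epithelia, was not well above background in EpiSC, with 37.2 units over a background of 28. In ELA-EpiSC its spot read 461 units over 23. The levels were 6.08 and 8.82, and Wnt6 was at least 6.72-fold higher in ELA-EpiSC. Across the processing alternatives its difference ran from 2.55 to 5.77 (log2). For a gene well above background on 1 array only, the brighter level was set against the dim level or the lowest detected level of that array, whichever was higher, and the fold is a bound. Such a bound holds for the processing used and not across the alternatives. Wnt10a, which acts in tooth and hair development, showed the same pattern. It read 34.7 units over 26 in EpiSC against 323 over 29 in ELA-EpiSC, with levels of 6.06 and 8.34, at least 4.84-fold higher in ELA-EpiSC, and its difference ran from 2.06 to 5.70 across the alternatives. In EpiSC both ligands have only an upper bound. By a laxer flag of the scanner software, signal significantly above local background, Wnt6 and Wnt10a were present on both arrays and Wnt3a on neither. Wnt7b, needed for lung and placenta development, was well above background on both arrays at 68.0 and 269 units. Its levels were 6.77 and 8.14, a difference of 1.36 or 2.57-fold, at chr15:85366896-85366955 on the minus strand. The mean levels of Wnt6, Wnt7b and Wnt10a were 7.45, 7.46 and 7.20, just under the minimum of 7.5, so these genes were not among those counted below.

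The ligands best known for non-canonical signalling went in opposite directions. Wnt5a, which directs axis and limb elongation, read 1101 units in EpiSC against 476 in ELA-EpiSC (chr14:29336664-29336723, plus strand). Its level was 10.30 in EpiSC against 8.86 in ELA-EpiSC, a difference of -1.44, or 2.71-fold higher in EpiSC. Under spike-in scaling the difference was -0.91, short of 1. Wnt5a was the only member with a lower level in ELA-EpiSC. Wnt5b, its closest paralogue, which acts in cartilage, read 498 and 1572 units (chr6:119382550-119382609, minus strand). The levels of Wnt5b were 9.19 in EpiSC against 10.50 in ELA-EpiSC, a difference of 1.31 or 2.47-fold. Wnt11, a ligand of heart, kidney and gastrulation movements, read 467 and 1696 units (chr7:106001985-106002045, plus strand). Its levels were 9.1 and 10.60, a difference of 1.5 or 2.83-fold, in the same direction as Wnt5b and opposite to Wnt5a.

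**Figure D2:**
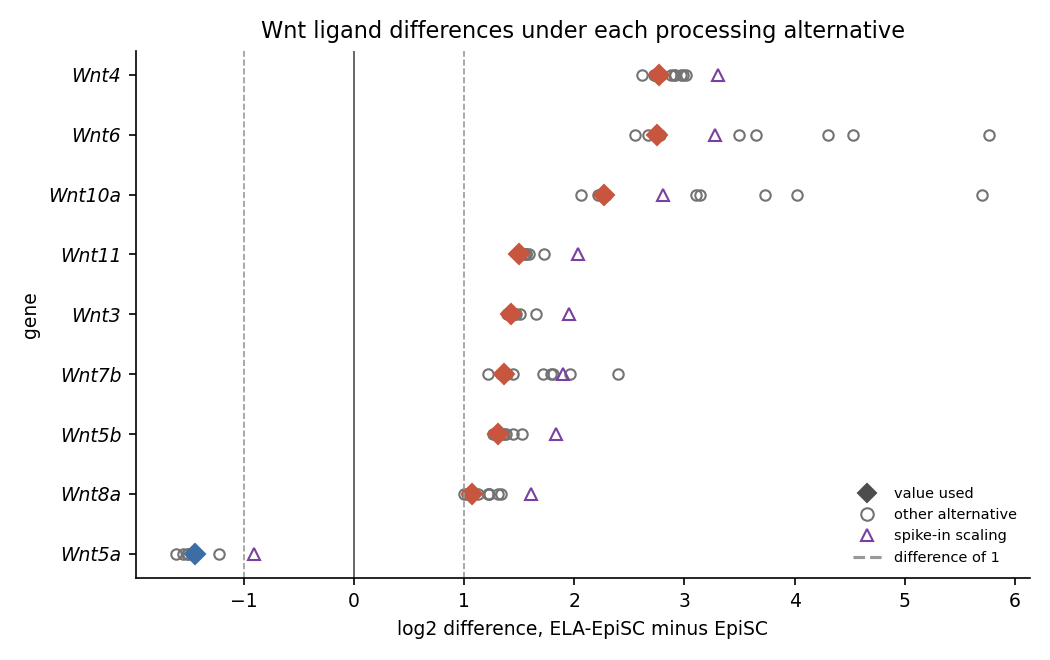
Log2 difference (ELA-EpiSC minus EpiSC) of the 9 detected Wnt ligands: diamonds are the values used, circles and triangles the same difference under 12 processing alternatives, and dashed lines mark 1 and -1. No ligand changes sign, Wnt8a passes 1 under 11 of the 12, Wnt5a passes -1 under all alternatives except spike-in scaling (-0.91), and Wnt6 and Wnt10a spread the most (2.55 to 5.77 and 2.06 to 5.70).

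Of the 10 ligands, 9 were well above background on at least 1 array, against 74.6% of all 34650 genes. Of these 9, 7 were detected on both arrays and 2, Wnt6 and Wnt10a, on the ELA-EpiSC array only, where 3.16% of the detected genes of the array fell. With a mean level of at least 7.5, 6 ligands could be counted, and all 6 passed an absolute difference of 1 (9.01% of the 16649 genes). Of the 6, 5 were higher in ELA-EpiSC (4.6% of all genes) and 1, Wnt5a, was higher in EpiSC (4.41%). The median difference of the 6 was 1.36 and that of the 9 detected ligands was 1.42, beside 0.01 over all genes. Since the members were chosen on this contrast, the shares and medians are set side by side and nothing is read from them. In the log2 table that was deposited beside the scanner files the differences kept their signs. They were 2.88 for Wnt4, 1.45 for Wnt3, 1.32 for Wnt5b, 1.55 for Wnt11, 1.13 for Wnt8a and -1.47 for Wnt5a. For the dim ligands they were larger there, at 4.30 for Wnt6, 3.73 for Wnt10a and 1.81 for Wnt7b. The differences of the 7 detected on both arrays were 10.5 to 27.2 times the SD over replicate spots. That SD is a measure of spot noise that leaves out labelling and culture, and nothing is read from the ratio.

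**Figure D3:**
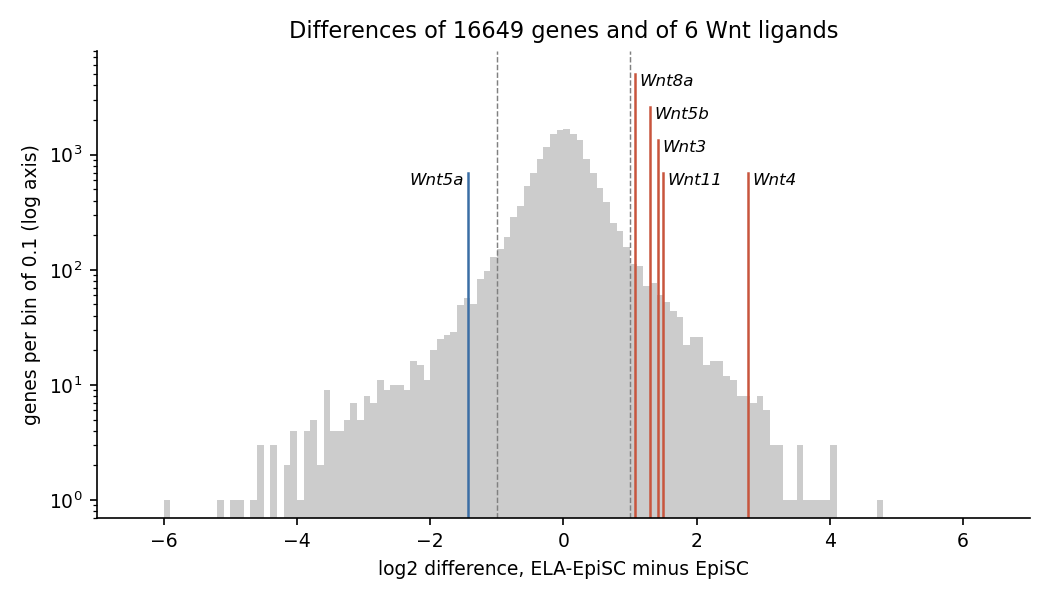
Histogram of the log2 difference (ELA-EpiSC minus EpiSC) of the 16649 genes with a mean level of at least 7.5, in bins of 0.1 on a log axis, with vertical lines for the 6 Wnt ligands among them and dashed lines at 1 and -1. Of all genes, 766 lie at or above 1 and 734 at or below -1.

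In order of the difference, Wnt4 and Wnt6 came first (2.77 and 2.75), then Wnt10a (2.27), Wnt11 (1.5), Wnt3 (1.42), Wnt7b (1.36), Wnt5b (1.31), Wnt8a (1.08) and Wnt5a (-1.44). Wnt4 and Wnt6 differed from each other by less than the spot SD of 0.10, and so did each neighbouring pair among Wnt11, Wnt3, Wnt7b and Wnt5b. The values of Wnt6 and Wnt10a are bounds. Among the 16649 genes with a mean level of at least 7.5, Wnt4 ranked 41 from the highest difference. Wnt11 ranked 335, Wnt3 ranked 384 and Wnt5b ranked 471 on the same side. Wnt8a came at 674, and Wnt5a ranked 350 from the lowest difference. Wnt4 therefore lay in the far tail of the genes, and the other 5 lay closer to the border of 1. The brighter ligands depended little on the processing. Across the alternatives the difference of Wnt3 ran from 1.39 to 1.95, that of Wnt11 from 1.48 to 2.03 and that of Wnt5b from 1.26 to 1.84, each with spike-in scaling as the highest. Wnt7b, dim in EpiSC, ran from 1.22 to 2.40. Levels were not ordered, because each probe has its own brightness. The nearest Wnt gene below the ligands past 1 was Wnt10b, at 6.62 in EpiSC against 7.53 in ELA-EpiSC, a difference of 0.91. Across the alternatives its difference ran from 0.73 to 1.75, and it was 1.33 in the deposited values. Wnt7a (0.49 to 2.29) and Wnt9a (0.72 to 1.27) also passed 1 under some alternatives, and Wnt2 (-3.23 to 0.10) passed -1. Passing 1 was therefore not particular to the 10 ligands under every processing.

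Wnt6 and Wnt10a are neighbours on mouse chromosome 1, with probes at chr1:74831461-74831520 and chr1:74850633-74850692, both on the plus strand and 19172 bases apart. The genes within 150 kb on either side were read in chromosome order. Of the 9 other named genes there, Cryba2 was well above background on neither array. Cdk5r2, an activator of the kinase Cdk5 and the gene next to Wnt10a, was detected in ELA-EpiSC only, at 6.12 in EpiSC against 7.14 in ELA-EpiSC, at least 2.03-fold higher. Among the named genes, Wnt6, Wnt10a and Cdk5r2 thus stand side by side, all 3 well above background on the ELA-EpiSC array only. By the laxer flag Wnt6 and Wnt10a were present on both arrays. Prkag3, on the other side of Wnt6, stood at 6.62 in EpiSC against 6.59 in ELA-EpiSC. Fev, beyond Cdk5r2, stood at 6.76 and 6.79. Apart from Cdk5r2, the 7 surrounding genes with a value differed by -0.30 (Ihh) to 0.24 (Ccdc108), and Cyp27a1 was detected in EpiSC only. These genes were examined after the values of Wnt6 and Wnt10a were known.

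**Figure D4:**
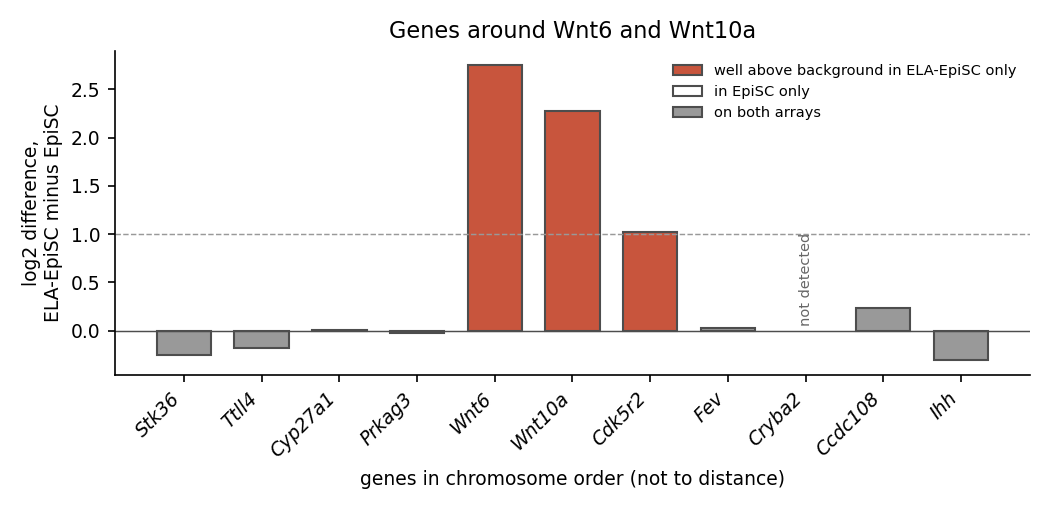
Log2 difference (ELA-EpiSC minus EpiSC) of the named genes within 150 kb of Wnt6 and Wnt10a, in chromosome order and not to distance. Bars in red are genes well above background in ELA-EpiSC only, and the 3 of them (2.75, 2.27 and 1.02) stand side by side. White is a gene detected in EpiSC only, whose bar is close to 0, and grey is both arrays.

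Other Wnt genes lie in pairs as well. Wnt3 and Wnt9b are 90156 bases apart by their probes on chromosome 11. Wnt9b had a difference of 0.40 (6.58 in EpiSC against 6.98 in ELA-EpiSC) beside 1.42 for Wnt3. Wnt3a, undetected, lies 85397 bases from Wnt9a, which stood at 9.48 and 10.22, a difference of 0.74. Wnt1 and Wnt10b lie 21992 bases apart on chromosome 15. Wnt1 stood at 9.92 and 9.84, a difference of -0.08 that spike-in scaling turned to 0.45, and its second probe was well above background on neither array. The other Wnt genes were smaller in difference or dim. Wnt7a had 6.27 in EpiSC against 7.01 in ELA-EpiSC, and Wnt16 had 7.08 and 7.09. Wnt2 was detected in EpiSC only, at 6.38 against a level of 5.94 in ELA-EpiSC, at least 1.21-fold higher, and spike-in scaling turned its difference to 0.10. Wnt2b and Wnt8b were not detected. Of all 19 Wnt genes, 16 were detected and 8 could be counted, 5 of them past 1 in ELA-EpiSC and 1 in EpiSC.

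The rest of the Wnt pathway was read through 10 lists, the other Wnt genes among them. For every count below, the shares over all genes were 4.6% higher past 1 in ELA-EpiSC and 4.41% in EpiSC. Of 8 genes for Wnt secretion, all detected, 1 passed 1: Porcn, the acyltransferase that lipidates every Wnt ligand, stood at 11.34 in EpiSC against 9.79 in ELA-EpiSC, 2.92-fold higher in EpiSC. Wls, the carrier of the lipidated ligands, stood at 11.65 and 11.71. The list had a median difference of -0.26, which became 0.27 under spike-in scaling. Porcn thus had the opposite direction to 8 of the 9 detected ligands that depend on it.

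Of the 10 Frizzled receptors, all were counted, 1 was higher past 1 in ELA-EpiSC and 2 in EpiSC, and the median was 0.05. Fzd10 stood at 10.01 in EpiSC against 12.63 in ELA-EpiSC, a difference of 2.62 or 6.14-fold. Fzd5, a receptor of the early embryo and yolk sac, stood at 11.02 and 9.48, a difference of -1.54, with -0.78 on its second probe. Fzd3, a receptor of axon guidance, stood at 10.13 and 9.11, a difference of -1.02 that became -0.49 under spike-in scaling. Among 7 co-receptors and binding proteins counted, 0 were higher past 1 and 2 were lower, with a median of -0.13. These were the glypicans, heparan sulphate proteins that bind Wnt at the cell surface. Gpc3 stood at 14.11 in EpiSC against 12.16 in ELA-EpiSC, and Gpc4 at 12.54 and 11.00 (-1.54, with -0.51 on another probe). In the R-spondin group, which amplifies Wnt signals through Lgr receptors, 0 of 5 genes passed 1, and the median was 0.15. Rspo2 was detected in EpiSC only, at least 1.34-fold higher there, and spike-in scaling turned its difference to 0.01.

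The antagonist list held secreted proteins and the Kremen membrane proteins. Of its 10 genes counted, 1 was higher past 1 in ELA-EpiSC and 3 in EpiSC, with a median of -0.01. Sfrp5, a decoy that binds Wnt in place of the receptor, stood at 14.95 in EpiSC against 10.41 in ELA-EpiSC, a difference of -4.55 or 23.4-fold. Sfrp1, of the same family, stood at 12.26 and 10.12, a difference of -2.14, and Frzb, another relative, at 10.77 and 9.72, a difference of -1.05. Frzb was at -0.52 under spike-in scaling, short of 1. Sfrp4, a further member of the family, went the other way, at 8.5 and 9.21, a difference of 0.71. The 1 higher was Kremen2, a membrane-bound partner of the Dkk antagonists and not itself secreted. It stood at 6.96 and 8.68, a difference of 1.72. Dkk2 was detected in ELA-EpiSC only, at least 1.26-fold higher, and Wif1 in EpiSC only, at least 1.66-fold higher. Across the processing alternatives the difference of Dkk2 fell as low as 0.004, and that of Wif1 came as close to 0 as -0.21.

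Of 11 counted genes of the cytoplasmic machinery, 0 passed 1, and their differences ran from -0.14 to 0.37 with a median of 0.08. Ctnnb1, which codes for beta-catenin, stood at 15.11 in EpiSC against 15.08 in ELA-EpiSC, and Apc2, a relative of the scaffold Apc, at 9.20 and 9.17. Of 12 nuclear factors, 0 passed 1, and the median was -0.06. Other probes went past 1 for Tle2 (-1.67) and Tcf7l2 (-1.10). Pygo2, a beta-catenin cofactor, stood at 14.22 and 14.18, and its partner Bcl9l at 7.96 and 8.08. Spike-in scaling made the differences of Ctnnb1, Apc2 and Pygo2 positive. Of 9 planar polarity genes, 0 were higher past 1 and 1 was lower: Celsr1, a cadherin of the polarity complex, stood at 12.53 and 11.50, a difference of -1.03. The median of that list was 0.11. Celsr1 was at -0.50 under spike-in scaling, which leaves 0 genes past 1. Prickle2 was well above background in EpiSC only, at 6.24 against 6.15, a difference smaller than the spot SD that spike-in scaling turned to 0.45.

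Of 16 known targets of beta-catenin, 7 were higher past 1 in ELA-EpiSC, beside 4.6% of all genes, and 0 in EpiSC, and the median was 0.88. Wisp1, a secreted matrix protein, stood at 6.71 in EpiSC against 10.68 in ELA-EpiSC, a difference of 3.98 or 15.7-fold, with 3.62 on its second probe. Sp5, a repressor induced by Wnt, stood at 10.96 and 13.89 (7.65-fold), and T, the streak factor Brachyury, at 11.18 and 13.67 (5.60-fold). Tnfrsf19 had a difference of 2.56 on its brighter probe and 0.54 on the other. Axin2, a feedback inhibitor widely used as a readout of Wnt activity, stood at 8.03 in EpiSC against 9.39 in ELA-EpiSC, a difference of 1.36, with 0.32 on its other probe. Myc differed by 1.47 and Ccnd1, a cyclin, by 1.14. Of the 16, 3 were below 0: Nkd2 (-0.74, with 0.89 on its other probe), Rnf43 (-0.71) and Lef1 (-0.17). Lef1, Tcf7, Lgr5, Rnf43, Notum and Dkk1 were counted in another list as well, so the lists are not separate. T, past 1 here, was also counted among the primitive streak markers below. Several targets act in other pathways too, and the target list was chosen with earlier results of these arrays known.

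**Figure D5:**
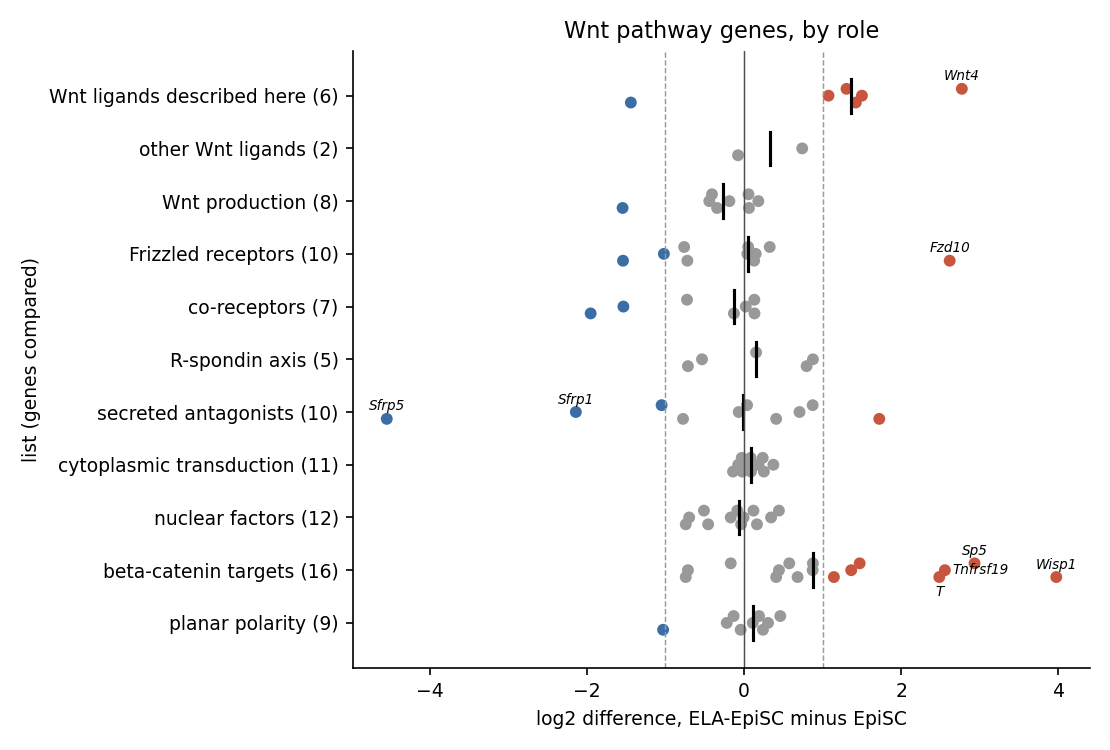
Log2 difference (ELA-EpiSC minus EpiSC) of each counted gene of the Wnt ligands and the 10 pathway lists, with the number of genes in brackets, a black bar for the list's median and dashed lines at 1 and -1. Red points are at or above 1, blue points at or below -1, and genes past 2 are named. The ligands (median 1.36) and the beta-catenin targets (0.88) lie mostly to the right, and the decoys Sfrp5 and Sfrp1 far to the left.

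Markers of other cell types differed between the arrays as well. Beside their counts, 4.6% of all genes were higher past 1 in ELA-EpiSC and 4.41% in EpiSC. Of 7 visceral endoderm markers counted, 0 were higher past 1 and 4 were lower in ELA-EpiSC, with a median of -2.39, and the summed level of the whole list of 10 went from 15.05 to 13.75. Hnf4a, a defining factor of that tissue, stood at 12.78 in EpiSC against 7.67 in ELA-EpiSC, and Ttr, a transport protein it makes, was detected in EpiSC only, at least 10.69-fold higher. Of the 7 counted, 6 were below 0 and Dab2 was at 0.21. Below the minimum level, Apob (0.55) and Afp (0.21) were higher in ELA-EpiSC, and Apoa1 was detected in EpiSC only. Of 6 trophoblast markers, 1 was higher and 3 lower, with summed levels of 14.13 and 12.72. Of 6 fibroblast and mesenchyme markers, 3 were higher and 0 lower, with summed levels of 13.86 and 16.08. The 3 were Col1a1 (3.72), Vim (2.54) and Pdgfra (1.77), and Vim, at 13.38 and 15.92, made up most of the sum. Col1a2 (0.08) and Thy1 (0.06) were near 0. Below the minimum level, Col3a1 was at 1.88 and Dcn at -0.32. Of 4 neural markers, 1 (Nes, 2.12) was higher, with summed levels of 12.81 and 14.58, while Pax6 was not detected. Of 11 primitive streak markers, 4 were higher and 2 lower, with a median of 0.33 and summed levels of 16.55 and 17.11. The 4 were T (2.49), Mixl1 (1.97), Nodal (1.49) and Fgf8 (1.32), and the 2 were Mesp1 (-1.66) and Evx1 (-1.01). In all, 6 of the 11 were above 0 and 5 below. Wnt ligands are made by many of these tissues, and the part of such cells in the ligand differences was not tested.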

How the data were processed

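RNA was measured on 2 one-colour Agilent SurePrint G3 mouse arrays. The authors deposited scanner files with spot intensity on a linear scale, not yet normalized, and per the file headers made with Feature Extraction 10.7.3.1, while the submitters' processing notes name version 9.1. The same deposited files carry quality flags per spot and probe positions of the mm9 assembly. Both arrays lay on 1 slide and were scanned once. The authors also deposited log2 values per probe, background-corrected and quantile normalized with limma, which served as an alternative.

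Background was removed in limma 3.58.1 (R 4.3.3) from the mean spot signal with the median local background, by the normexp method fitted on all spots and an offset of 50. Non-control spots were quantile normalized and taken as log2, spots with an outlier flag were left out (158 for EpiSC and 117 for ELA-EpiSC), and repeat spots were averaged per probe. The offset makes differences of dim genes smaller, and quantile normalization hides a shift shared by all genes. Detection of a probe needed the well-above-background flag on a share of at least 0.5 of its spots, and a gene took its brightest detected probe by mean level. A gene was counted if its mean level (log2) reached 7.5, and the threshold for a difference was 1 in either direction, sizes taken from the methods of the study. With 1 array per group there was no test and no p-value. The steps were tested on simulated data, made by adding known changes to brighter spots of the EpiSC array. In EpiSC, Wnt6, Wnt7b, Wnt8a and Wnt10a were dimmer than those spots, so the simulation does not cover them.

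The ligands, the gene lists and the markers were chosen with earlier results of these data known. Named genes were all 10 ligands, the other Wnt genes detected, and in each pathway list the genes past 1 or detected on 1 array only, or else those with the largest and smallest mean level. Others were named after their values were seen (Wls, Sfrp4, Tle2, Tcf7l2, the cell type markers named and the genes around Wnt6 and Wnt10a). Alternatives were 12 changes of background correction, scaling, signal or probe choice, and 5 changes of threshold, filter or detection flag. Promoters came from RefSeq (GRCm38.p6) and were not set against mm9 positions.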

Additional observations from a re-analysis of the deposited data

How the results depend on the processing

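No paired analysis was possible because the groups hold 1 array apiece, and leaving out an array leaves no comparison. Of the 9 detected ligands, none changed sign under any of the 12 alternatives for the differences, and 7 passed 1 under all 12. The exceptions were Wnt5a under spike-in scaling (-0.91) and Wnt8a under the 75th percentile after normexp (1.00). Ligands past 1 and higher in ELA-EpiSC numbered 5, or 8 without the minimum level and 1 at a threshold of 2.5. Ligands higher in EpiSC numbered 1, or 0 under spike-in scaling and at 2.5. Over all genes, those higher in ELA-EpiSC numbered 2477 under spike-in scaling, 67 at 2.5 and 1862 at 1.5-fold, against 766. Those higher in EpiSC numbered 309 under spike-in scaling, 475 at a minimum level of 9, 108 at 2.5 and 1796 at 1.5-fold, against 734. Of the genes past 1, 51.1% were higher in ELA-EpiSC, 68.0% after median scaling and 88.9% after spike-in scaling.

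The median of the 6 ligands was 1.48 with the processed signal, 1.59 after median scaling and 1.89 after spike-in scaling. Median scaling moved the list medians to 0.24 for Frizzled receptors, 0.36 for the R-spondin group, -0.065 for Wnt production, 1.09 for beta-catenin targets, 0.085 for co-receptors, 0.25 for cytoplasmic genes, 0.11 for nuclear factors and 0.35 for planar polarity. Spike-in scaling moved them to 0.58, 0.68, 0.27, 1.41, 0.40, 0.61, 0.47 and 0.64 in the same order. The median of the antagonist list was -0.19 with the processed signal, -0.17 at the 75th percentile after normexp and 0.52 under spike-in scaling. It was 0.063 after median scaling. Where all detected probes were averaged, the medians were 0.022 for co-receptors, 0.023 for antagonists and -0.015 for Frizzled receptors. The co-receptor, nuclear and antagonist medians thus changed sign with both scalings, that of Wnt production with spike-in scaling, and those of co-receptors, antagonists and Frizzled receptors with averaged probes. Signal over background limits Wnt6 and Wnt10a in EpiSC and Wnt3a on both arrays to bounds.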
